A study of Rattus norvegicus with 39 samples.

Results

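Genes of 7 solute carrier families that move amino acids across membranes (families 1, 3, 6, 7, 36, 38 and 43) were followed in the livers of rats treated with 6 compounds. Members were taken by symbol: every gene on the array whose symbol starts with Slc, one of these family numbers and the letter a followed by a digit. This gave 53 genes, measured by 72 probe sets, of 14217 genes in all. Of the 53, 52 encode membrane carriers or their partner chains. Slc7a6os carries a carrier's name because its gene lies opposite Slc7a6, but its product is no carrier, and family 6 also brings in carriers of monoamines, creatine, taurine and GABA.

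Total RNA of the left lateral liver lobe was hybridized to Affymetrix rat expression arrays, 39 in all, from rats 5 to 6 weeks old whose livers were taken 48 h after treatment. Groups of 5 rats received ANIT (alpha-naphthylisothiocyanate, a toxicant of bile ducts) at 125 mg/kg in corn oil by mouth, DMN (dimethylnitrosamine, an alkylating liver carcinogen) orally at 15 mg/kg in water, NMF (the liver-toxic solvent N-methylformamide) at 1000 mg/kg in saline by intraperitoneal injection, Caerulein (a peptide that stimulates the exocrine pancreas) at 50 µg/kg in saline by intraperitoneal injection, DNP (2,4-dinitrophenol, which uncouples mitochondria) at 15 mg/kg in water by mouth, or Roziglitazone (the labels' spelling of the PPARG agonist) at 1000 mg/kg in methylcellulose by mouth. The 9 control rats were untreated and had no vehicle, and against them the effects of a compound, its vehicle and its route cannot be told apart. The tissue was whole liver, so fewer cells of a type and less RNA per cell cannot be told apart either.

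Amino acid carriers set how fast the liver takes amino acids from portal blood, keeps them for protein, glutathione and urea, or returns them. Several work as pairs: a heavy chain, the product of Slc3a2 (4F2hc, also called CD98) or Slc3a1 (rBAT), brings a light chain of family 7 to the membrane, and the light chain does the transport. Slc3a2, Slc7a5, Slc7a11, Slc1a4 and Slc38a2 are textbook targets of ATF4, the transcription factor induced when amino acids run short or the endoplasmic reticulum is stressed. Slc7a11 is also a target of NRF2, the factor of the antioxidant response. In the lobule, pericentral hepatocytes take up glutamate through the carrier encoded by Slc1a2 and make glutamine from it.

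The labels of 3 arrays, ANIT 3, DMN 2 and Roziglitazone 2, were already doubted in earlier results of these data, and member calls that rest on them are given with and without them. The deviation of ANIT 3 from the mean of all other arrays correlated at 0.301 with the deviation of its own group and at 0.705 with that of DMN. Roziglitazone 2 correlated at -0.303 with its own group and at 0.802 with ANIT, and DMN 2 at 0.003 with the other DMN arrays. These correlations did not choose the 3: only 15 of the 39 arrays correlated best with their own group, and Roziglitazone 1 (-0.221), control 5 (-0.086) and DNP 1 (-0.061), which were kept, fitted their own group less well than DMN 2. On 7 arrays the GAPDH 5′ control probe set lay more than 1 log2 unit below its median. They were ANIT 5, DMN 3, DNP 1, NMF 3, Roziglitazone 1, control 4 and control 5. The GAPDH 3′ probe set was low too on DNP 1 (9.99), Roziglitazone 1 (10.84) and control 5 (8.09), beside 12.66 to 13.27 on all other arrays. A low GAPDH 5′ level alone therefore does not show degraded RNA. Hepatocyte markers (4 measured) were far above background in every group, with summed intensities from 48900 to 69000. Macrophage markers summed to 4110 to 6960 in NMF against 5910 to 8400 in controls, and 3 of their 6 genes were called lower there. Stellate cell and fibroblast markers summed to 2870 to 3750 in NMF against 4510 to 9040 in controls, with 3 of 9 lower. All 7 cycling-cell markers were called higher in DMN, where they summed to 1480 to 5880 against 646 to 992 in controls, and 3 of 6 neutrophil markers were. Endothelial markers were called lower for 3 of 6 in DMN (down to log2 -2.08) and 2 of 6 in ANIT, where 2 of 7 cycling-cell markers were higher and 3 of 6 pancreatic acinar markers lower. Without the doubted arrays these 3 ANIT counts were 1 each, and all the DMN and NMF counts in this paragraph were as given. Their part in the member levels was not tested.

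From 1 to 7 carriers changed against controls in ANIT, DMN and NMF, and none was called with the other 3 compounds. A gene was called when its adjusted p was under 0.05 in a limma fit to all 39 arrays with Benjamini-Hochberg adjustment over 14217 genes. ANIT had 7 members called (13.2% of the 53), 3 higher and 4 lower, beside 16.5% of all genes (8.19% higher and 8.29% lower). Without the doubted arrays ANIT had 8, 5 higher and 3 lower, beside 16.0% of all genes: Slc38a3 (log2 0.365, adjusted p = 0.0254) and Slc6a9 were gained and Slc6a20b was lost. NMF had 5 (9.43%), 2 higher and 3 lower, beside 7.48% (3.85% higher and 3.63% lower). DMN had 1 (1.89%), lower, beside 10.4% (5.87% higher and 4.53% lower), and 4 (3 of them higher) without the 3 doubted arrays, beside 13.9% of all genes there. The median log2 fold change of the 53 members was -0.17 in ANIT beside -0.09 over all genes, -0.14 beside -0.06 in DMN and -0.09 beside -0.05 in NMF. Centring each array on its own median moved the median of all genes in ANIT to 0.04, and there the members called were 5 higher and 4 lower. Of all 14217 genes centring called 1666 higher and 627 lower, beside 1165 and 1179 in the main fit. These 3 comparisons share their controls.

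Caerulein, DNP and Roziglitazone had no member called, and 0.0%, 0.0% and 0.0% of all genes. At an unadjusted p under 0.05, limma gave 0 members and 541 genes in Caerulein, 1 member (Slc6a6, lower) and 199 genes in DNP, and 1 member (Slc6a20b, lower) and 1044 genes in Roziglitazone. Array weights called 5 genes in Caerulein, 9 in Roziglitazone and 0 in DNP, none of them a member. The widest member fold changes in these groups, log2 1.12 for Slc6a13 in Caerulein and 1.08 for Slc1a4 in Roziglitazone, had standard errors of 0.74 and 0.59.

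**Figure D1:**
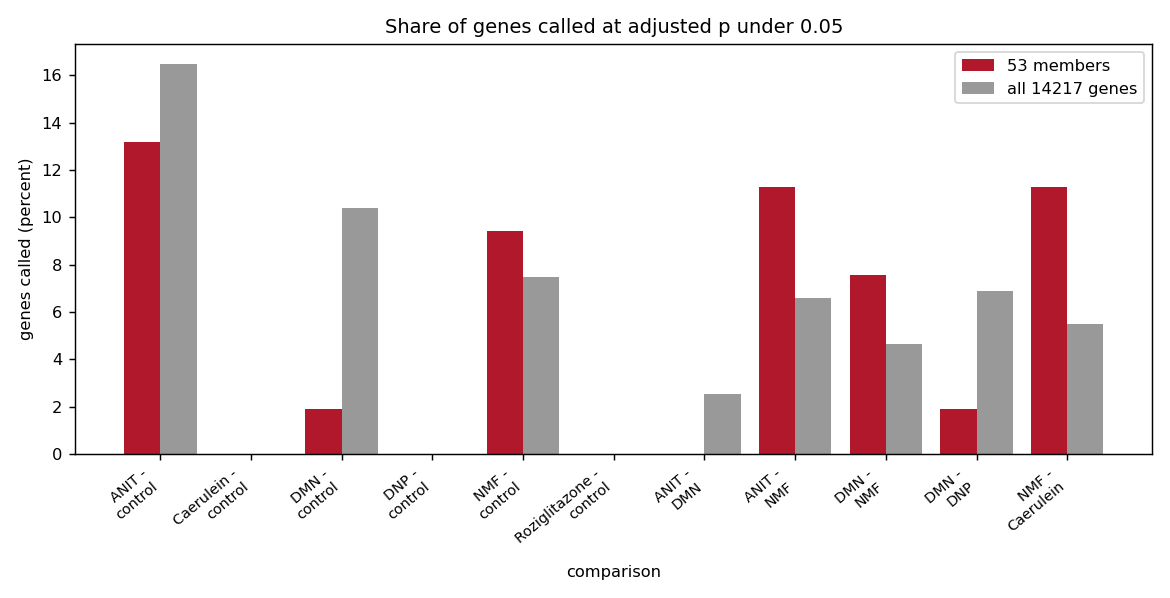
Percent of genes called at adjusted p under 0.05 (vertical axis) among the 53 members (red) and all genes tested (grey) in each of the 11 comparisons (horizontal axis). The member share lies below that of all genes in ANIT (13.2 beside 16.5) and DMN (1.89 beside 10.4) and above it in NMF (9.43 beside 7.48).

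**Figure D2:**
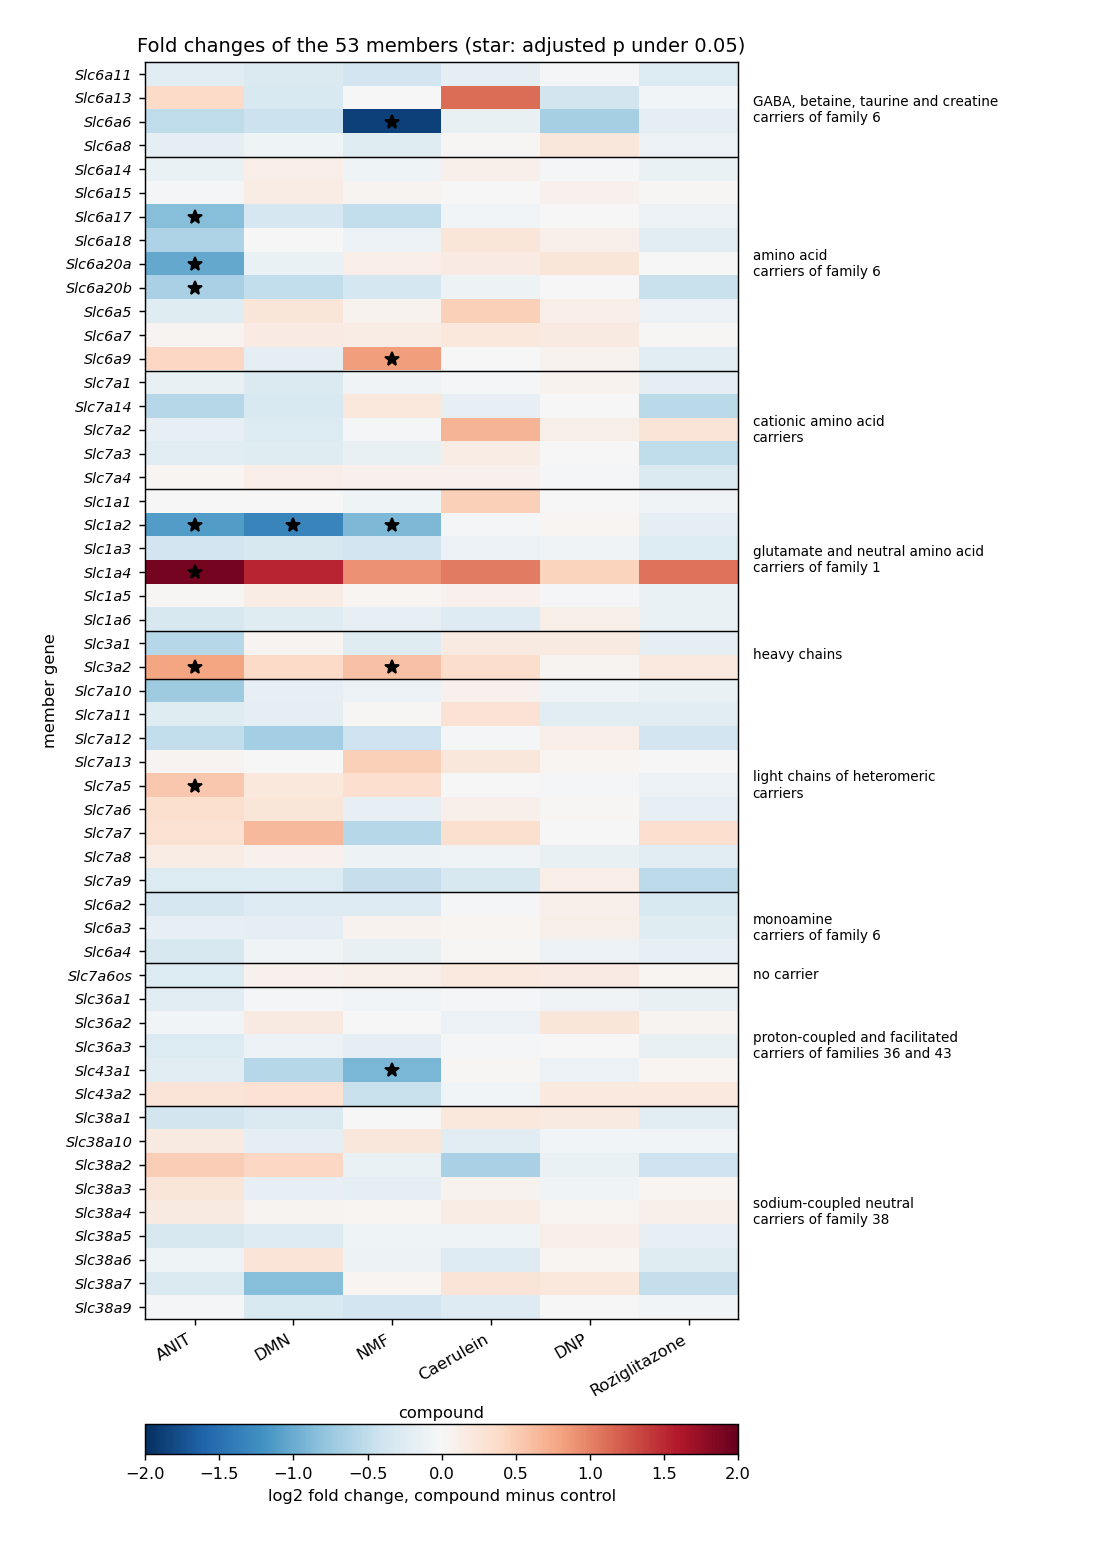
Log2 fold change against controls (colour, red higher, blue lower, scale from -2 to 2) of each of the 53 members (rows, grouped by role) for the 6 compounds (columns); a star marks an adjusted p under 0.05. Slc1a2 is the one row with a star in ANIT, DMN and NMF, and the 3 columns on the right hold no star.

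The heavy chain Slc3a2 rose in ANIT and NMF. Its level is log2 intensity throughout, a scale that cannot be compared between genes. The 5 ANIT arrays read 11.17, 11.26, 11.27, 11.05 and 11.30, and the controls ran from 9.99 through a median of 10.41 to 10.86. Every ANIT array lay above every control. The rise was 1.73-fold (log2 0.79, SE 0.18, adjusted p = 0.00226), and log2 0.77 (adjusted p = 0.00186) without the doubted arrays. The NMF arrays read 11.55, 11.28, 10.41, 10.73 and 11.10, so that NMF 3 and NMF 4 lay among the controls. The rise in NMF was 1.51-fold (log2 0.59, SE 0.18, adjusted p = 0.0346). That call was lost with quantile normalization (0.0508) and in a fit to these groups alone (0.0636). It was also lost without NMF 1 (0.169), NMF 2 (0.109), NMF 5 (0.0876), control 6 (0.0523) or control 8 (0.0665). In DMN the arrays read 11.27, 10.30, 11.08, 10.98 and 10.41, with the lowest value on the doubted DMN 2. The DMN difference was log2 0.39 (adjusted p = 0.179), and 0.52 (adjusted p = 0.0438) without the doubted arrays. The array labelled Roziglitazone 2, at 11.31, lay just above the highest ANIT array, and the 4 others of its group lay below every ANIT array. The other heavy chain, Slc3a1, which pairs with the cystine light chain in kidney and gut, was not called. Its ANIT arrays, from 5.75 to 6.10, lay below every control (6.19 to 6.955), and array weights called it lower in ANIT.

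Among the 9 light chains 1 was called against controls. Slc7a5 encodes LAT1, which exchanges large neutral amino acids such as leucine and pairs with the Slc3a2 product. Its ANIT arrays read 7.40, 7.40, 6.65, 7.40 and 7.60, beside controls from 6.09 through 6.81 to 7.19. The 4 other ANIT arrays lay above every control, and ANIT 3 below the control median. The rise was 1.46-fold (log2 0.55, SE 0.17, adjusted p = 0.0259), and log2 0.71 (adjusted p = 0.00211) without the doubted arrays. It lost its call without arrays low in GAPDH 5′ (0.0723), in a fit to these groups alone (0.068), and without ANIT 1 (0.0626), ANIT 2 (0.0628), ANIT 4 (0.062), ANIT 5 (0.0941) or control 9 (0.0559). Slc7a11, which encodes the cystine importer xCT, had group means from 4.36 to 4.89. The poly-A spike-in probe sets, of bacterial genes absent from liver, had means up to 4.70 for 26 of 27 and 6.47 for the last, so Slc7a11 was at or near background in every group and no fold is given. By the same gauge 19 of the 53 members had no group mean above 6.47 and 5 had none above 4.70.

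The neutral amino acid exchanger Slc1a4 (ASCT1, which carries alanine, serine and cysteine) had the largest rise of any member called, and its arrays spread widely within groups (SD up to 1.73, in DMN). Its ANIT arrays read 8.90, 9.35, 9.80, 9.37 and 8.68, and its controls ran from 6.01 through 7.24 to 8.47. All 5 ANIT arrays lay above all 9 controls. The rise was 3.78-fold (log2 1.92, SE 0.59, adjusted p = 0.0231), log2 1.77 (adjusted p = 0.0276) without the doubted arrays, and not called without ANIT 3 alone (0.0592). The DMN arrays read 8.35, 6.11, 9.70, 9.37 and 10.63, where DMN 2 was again the lowest. With all arrays the DMN difference of log2 1.53 missed the threshold (adjusted p = 0.0991), and without the doubted arrays it was 2.21 (adjusted p = 0.0061). The other groups spread from 6.58 to 9.71 in DNP, from 6.59 to 9.55 in Caerulein, from 7.27 to 9.20 in NMF and from 6.33 to 10.17 in Roziglitazone, so that each overlapped the controls. Slc1a5, which encodes the related glutamine exchanger ASCT2, had group means from 7.21 to 7.48 and was not called.

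**Figure D3:**
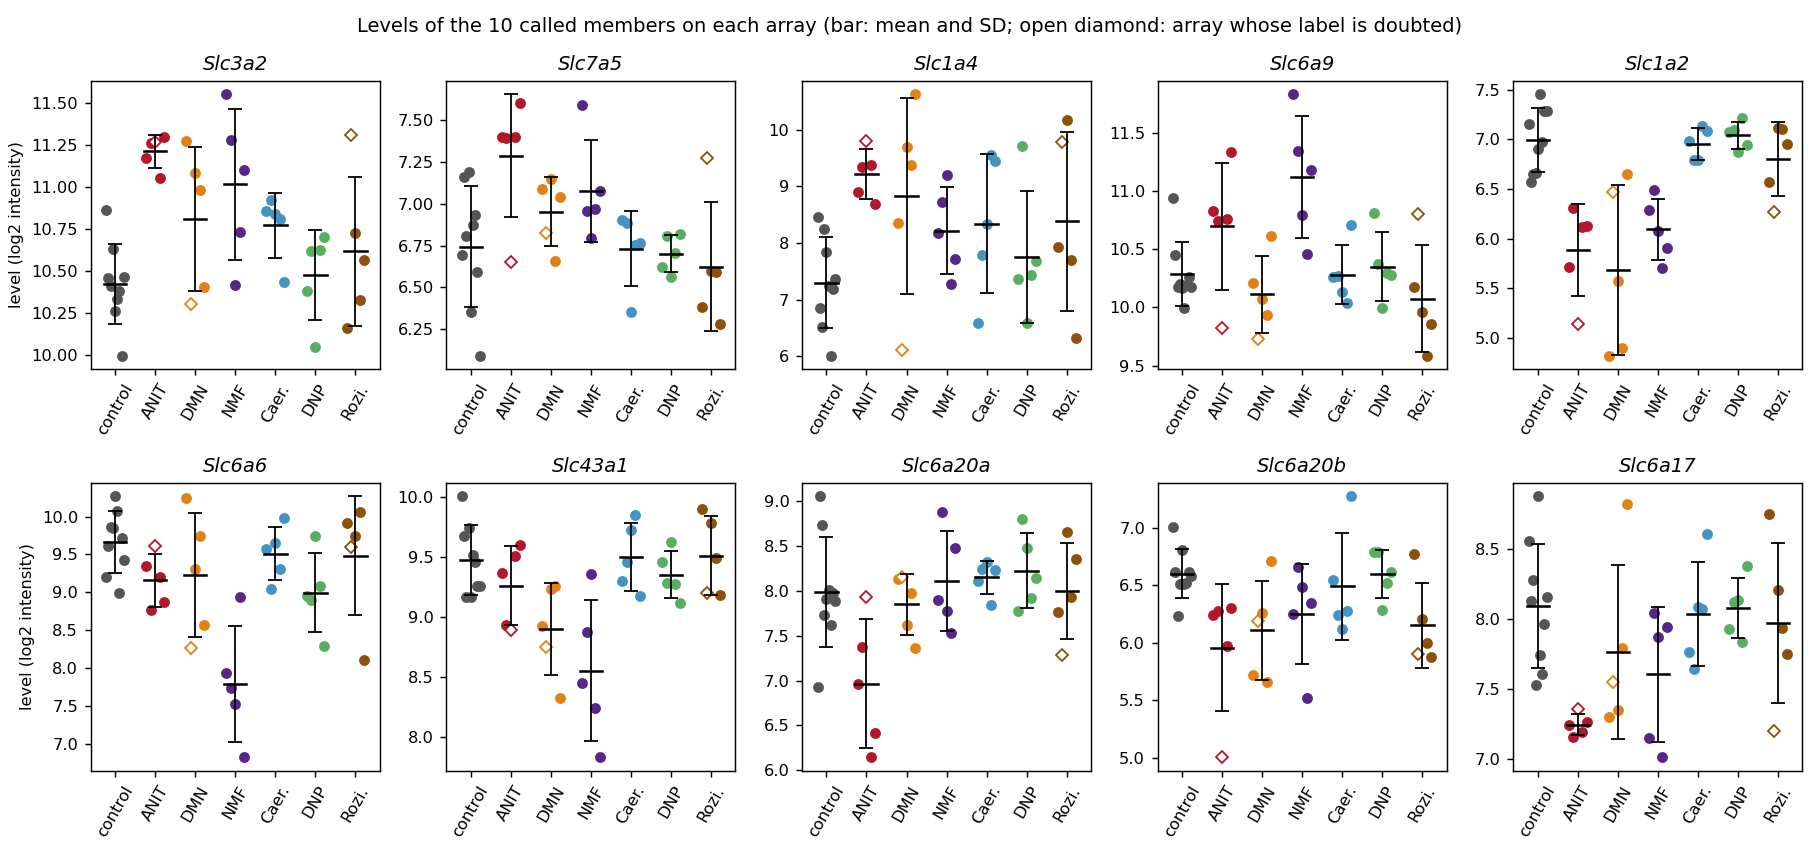
Log2 intensity (vertical axis, a scale of its own in each panel) on each array for the 10 members called against controls, by group (horizontal axis, Caer. Caerulein, Rozi. Roziglitazone); bars are group means with SD (9 controls, 5 arrays in each other group) and open diamonds are the 3 arrays whose labels are doubted. All ANIT points of Slc3a2 and Slc1a4 lie above all control points, and all ANIT points of Slc1a2 and Slc6a17 below them.

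The 3 members that rose in ANIT are shown with the sequence before their start sites, since they were the members called higher in that comparison. The sequences are RefSeq's, on build GRCr8, given 5′ to 3′ on the strand of the gene (the minus strand for each), and cover the 250 bases that end 1 base before the annotated start. A set of 3 motifs was searched on both strands: TGATGNAA, the composite site of C/EBP and ATF proteins known from amino acid response elements, TGACNNNGC, the core of the antioxidant response element, and the E-box CACGTG. Matches are in capitals, and no 2 of them overlap in these windows.
Slc1a4, chr14:98761563-98761812: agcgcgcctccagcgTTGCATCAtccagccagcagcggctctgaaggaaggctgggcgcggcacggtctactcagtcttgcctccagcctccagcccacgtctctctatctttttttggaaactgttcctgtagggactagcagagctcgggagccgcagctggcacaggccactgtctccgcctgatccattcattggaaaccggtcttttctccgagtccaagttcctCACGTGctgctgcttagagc
Slc7a5, chr19:66872413-66872662: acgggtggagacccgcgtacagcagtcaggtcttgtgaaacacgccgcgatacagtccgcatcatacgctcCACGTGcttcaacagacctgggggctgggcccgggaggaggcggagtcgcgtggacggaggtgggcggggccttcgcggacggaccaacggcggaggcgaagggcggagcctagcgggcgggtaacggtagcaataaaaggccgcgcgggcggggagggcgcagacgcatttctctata
Slc3a2, second start site, chr1:215039671-215039920: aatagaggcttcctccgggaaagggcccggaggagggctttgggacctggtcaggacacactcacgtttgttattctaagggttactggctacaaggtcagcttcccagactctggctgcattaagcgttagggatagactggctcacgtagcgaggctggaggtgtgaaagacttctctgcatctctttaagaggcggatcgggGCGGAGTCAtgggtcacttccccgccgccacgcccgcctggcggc
The Slc1a4 window holds the composite site on the reverse strand, TTGCATCA, from base 235 to base 228 before the start, and an E-box from base 20 to base 15. The Slc7a5 window holds an E-box from base 179 to base 174. The Slc3a2 window holds the antioxidant core on the reverse strand, GCGGAGTCA, from base 45 to base 37, and the window of its other annotated start site held none of the 3 motifs. Over all 33469 promoter windows of the table, 3.4% held the composite site, 10.1% the antioxidant core and 5.59% the E-box. Of the 41 members matched in the table (46 windows), 3 held the composite site (Slc1a4, Slc38a1 and Slc7a1), 8 the antioxidant core and 7 the E-box. A match is a run of letters and shows no binding.

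The glutamate carrier Slc1a2 (GLT-1) fell in ANIT, DMN and NMF and was the one member called in all 3. Controls ran from 6.57 through 6.98 to 7.46. The ANIT arrays read 5.72, 6.31, 5.14, 6.12 and 6.13, the NMF arrays 6.29, 6.49, 6.08, 5.70 and 5.91, and all of them lay below every control. The DMN arrays read 4.82, 6.47, 5.57, 4.89 and 6.65, of which only DMN 5 reached into the control range. The fall was 2.16-fold in ANIT (log2 -1.11, SE 0.23, adjusted p = 0.000872), 2.49-fold in DMN (log2 -1.32, adjusted p = 0.000195) and 1.87-fold in NMF (log2 -0.90, adjusted p = 0.00973). These 3 lower means lay under the 6.47 of the brightest spike-in, and against that level as a bound on each array the fall was at least 1.44-fold in ANIT, 1.4-fold in DMN and 1.43-fold in NMF. Leaving out any single array kept all 3 calls, with adjusted p at most 0.0487, and without the doubted arrays the log2 differences were -0.93, -1.51 and -0.90. Group means in falling order were 7.04 in DNP, 6.995 in controls, 6.96 in Caerulein, 6.80 in Roziglitazone, 6.09 in NMF, 5.88 in ANIT and 5.68 in DMN. The first 4 differed from each other by less than the control SD of 0.32, and the step from Roziglitazone to NMF was 0.71. The lowest Roziglitazone array, at 6.26, was the doubted Roziglitazone 2. Against the compound given in the same vehicle by the same route the direction was the same: DMN lay 2.57-fold below DNP (adjusted p = 0.00106), where no arrays overlapped, and NMF 1.82-fold below Caerulein (adjusted p = 0.0428), or at least 1.45-fold and 1.39-fold against the bound. The first lost its call in a fit to these groups alone (0.0551) and was log2 -1.56 without the doubted arrays. The second lost its call when arrays were centred on their medians, without arrays low in GAPDH 5′, with the probe set of largest variance for each gene, or without any of 9 single arrays (adjusted p up to 0.133). A second Slc1a2 probe set, with a mean of 4.35 near background, differed by log2 -0.25 in ANIT, -0.21 in DMN and 0.01 in NMF and was not called.

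The taurine carrier Slc6a6 fell in NMF. Taurine is an osmolyte of liver cells and conjugates bile acids. The NMF arrays read 7.94, 7.74, 7.53, 8.93 and 6.82, below every control, which ran from 8.99 through 9.72 to 10.27. The fall was 3.66-fold (log2 -1.87, SE 0.31, adjusted p = 7.2e-05). Caerulein, given by the same route in the same vehicle, read 9.57, 9.05, 9.65, 9.31 and 9.98, and NMF lay 3.29-fold below it (adjusted p = 0.00151) with no overlap. NMF also lay below ANIT by 2.58-fold (adjusted p = 0.0133) and below DMN by 2.71-fold (adjusted p = 0.0096), with overlapping arrays in both. The call against ANIT was lost without NMF 5 (0.073), and that against DMN without DMN 1 (0.0533), without NMF 5 (0.0527), without arrays low in GAPDH 5′ or in a fit to these groups alone. Without the doubted arrays NMF lay below ANIT by log2 1.25 (adjusted p = 0.0236) and below DMN by 1.675 (adjusted p = 0.00204). A second Slc6a6 probe set, dimmer with a mean of 6.47, has the larger variance, and in its place all 4 calls were lost. It differed in NMF by log2 -1.48 from controls (0.176), by -1.69 from Caerulein (0.2), and lay below ANIT by 1.78 (0.129) and below DMN by 0.715 (0.831). Enzymes on the route from cysteine to taurine fell in NMF as well: Csad, cysteine sulfinate decarboxylase, by 2.00 on the log2 scale (adjusted p = 1.17e-07) and Cdo1, cysteine dioxygenase, by 0.58. Both also fell in ANIT and DMN, where Slc6a6 differed by log2 -0.51 and -0.44 and was not called.

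The glycine carrier Slc6a9 (GlyT1) rose in NMF. Its NMF arrays read 11.84, 11.35, 10.80, 10.46 and 11.18, beside controls from 9.99 through 10.19 to 10.95. NMF 1, NMF 2 and NMF 5 lay above every control, the highest of which was control 1. The rise was 1.79-fold (log2 0.84, SE 0.21, adjusted p = 0.00902) and lost its call without NMF 1 (0.0699) and with the probe set of largest variance in its place (0.188). NMF lay 1.79-fold above Caerulein (adjusted p = 0.0305) and 2.02-fold above DMN (adjusted p = 0.00759). The call against Caerulein was lost with quantile normalization, in a fit to these groups alone, with the probe set of largest variance (0.763) and without any of 7 single arrays (adjusted p up to 0.126). The call against DMN was lost in a fit to these groups alone (0.0916) and with the probe set of largest variance (0.0715), and was kept without the doubted arrays (DMN minus NMF log2 -0.915, adjusted p = 0.00467). All 3 probe sets of Slc6a9 were higher in NMF, by log2 0.84, 1.02 and 1.36, and the first 2 were called when each probe set was tested apart. In ANIT the gene differed by log2 0.41, and by 0.63 (adjusted p = 0.0218) without the doubted arrays, since ANIT 3 at 9.82 lay below the other 4 (10.74 to 11.34).

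Another 3 family 6 carriers fell in ANIT. Slc6a20a and Slc6a20b are the rodent copies of the gene for the imino acid carrier of proline and its relatives, and Slc6a17 encodes a vesicle carrier of neutral amino acids known from neurons. Slc6a20a read 6.96, 7.38, 7.93, 6.14 and 6.41 in ANIT beside 6.93 through 7.91 to 9.06 in controls, a fall of 2.03-fold (log2 -1.02, SE 0.28, adjusted p = 0.0104). The highest of these was ANIT 3, and without the doubted arrays the difference was log2 -1.26 (adjusted p = 0.0016), while without ANIT 4 the call was lost (0.0586). ANIT also lay 2.21-fold below NMF in Slc6a20a (adjusted p = 0.0222), a call lost without ANIT 4 (0.0871), ANIT 5 (0.0851), NMF 2 (0.0897) or NMF 5 (0.0762), without arrays low in GAPDH 5′ and in a fit to these groups alone, and log2 -1.39 (ANIT minus NMF, adjusted p = 0.00315) without the doubted arrays. The other Slc6a20a probe set was dimmer, with a mean of 5.765. It read from 5.26 to 6.06 in ANIT, 5.11 to 5.935 in NMF and 5.45 to 6.32 in controls, so that these groups overlapped. Slc6a20b read 6.24, 6.27, 5.00, 5.97 and 6.30 beside 6.24 through 6.58 to 7.01, with the lowest value on ANIT 3. Its fall of 1.56-fold (adjusted p = 0.0311) was lost without the doubted arrays (log2 -0.40, adjusted p = 0.192), with quantile normalization (0.053), and without ANIT 3 (0.186), ANIT 4 (0.056) or control 1 (0.0514). All 5 ANIT arrays lay under the 6.47 of the brightest spike-in, against which the fall was at least 1.09-fold. Slc6a17 read 7.25, 7.16, 7.36, 7.20 and 7.27, all below the controls (7.53 through 8.13 to 8.88). Its fall was 1.80-fold (log2 -0.85, adjusted p = 0.0116), and log2 -0.875 (adjusted p = 0.0133) without the doubted arrays, but 4 other probe sets of Slc6a17 differed by log2 -0.53 to -0.04 and were not called.

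Among the GABA, taurine and creatine carriers, Slc6a13 (GAT2, a GABA and taurine carrier of hepatocytes) was low on the arrays low in GAPDH 5′. These 7 arrays were the lowest for Slc6a13 in each of the 6 groups that hold one. They read 9.38 on ANIT 5, 7.28 on DMN 3, 6.01 on DNP 1, 7.73 on NMF 3, 6.63 on Roziglitazone 1, 8.20 on control 4 and 5.69 on control 5. The other 32 arrays ran from 8.43 through a median of 10.33 to 11.21. Group means lay from 9.31 in DNP to 10.81 in Caerulein, the one group with no array low in GAPDH 5′, and no comparison called the gene. On the probe sets standing for the 14 members called in any comparison, low arrays were lowest in at most 2 of the 6 groups. For the Slc6a9 probe set of largest variance they were the lowest in all 6, as with 4.99 on DMN 3 and 5.36 on control 4. For that of Slc6a6 they were the lowest in each of these groups but ANIT, as with 4.02 on NMF 3 and 4.55 on control 5. With these probe sets the Slc6a6 and Slc6a9 calls were lost. The part of RNA quality in the levels of Slc6a13, Slc6a9 and Slc6a6 was not tested.

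**Figure D4:**
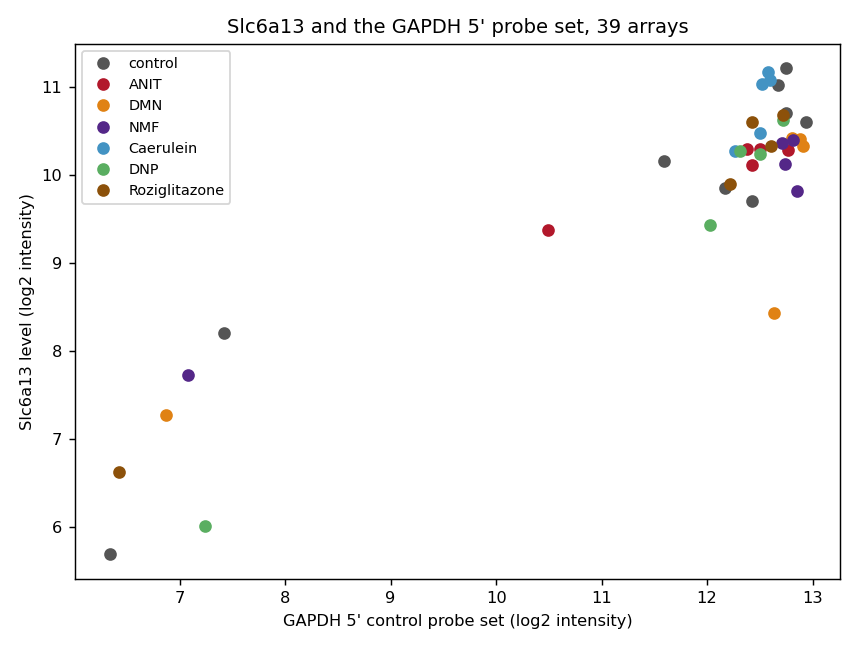
Slc6a13 level (vertical axis, log2 intensity) against the GAPDH 5′ control probe set (horizontal axis, log2 intensity) on each of the 39 arrays, coloured by group. The 7 arrays low in GAPDH 5′ read from 5.69 to 9.38 for Slc6a13 and the other 32 from 8.43 to 11.21.

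The facilitated carriers of large neutral amino acids are Slc43a1 (LAT3) and Slc43a2 (LAT4). Slc43a1 read 8.45, 8.87, 9.36, 8.24 and 7.83 in NMF beside 9.16 through 9.46 to 10.01 in controls, and NMF 3 was the one array within the control range. The fall was 1.89-fold (log2 -0.92, SE 0.20, adjusted p = 0.0017). It was as large against Caerulein (1.93-fold, adjusted p = 0.00619), and leaving out any single array kept both calls. NMF also lay 1.63-fold below ANIT (adjusted p = 0.0461), a call lost under median centring, quantile normalization, in a fit to these groups alone (0.135), with the probe set of largest variance (0.0545) and without any of 6 single arrays (adjusted p up to 0.2), and log2 0.80 (adjusted p = 0.0256) without the doubted arrays. In DMN Slc43a1 differed by log2 -0.57 (adjusted p = 0.0544). Slc43a2 was called between compounds alone. It read 7.18, 6.86, 7.05, 7.45 and 7.08 in NMF, all below DMN (8.05, 7.46, 7.84, 7.83 and 8.13). NMF lay 1.67-fold below DMN (adjusted p = 0.0112) and 1.62-fold below ANIT (adjusted p = 0.0165), the latter lost without ANIT 1 (0.0511), ANIT 4 (0.0691) or NMF 2 (0.0559). Fits to the groups compared alone ended both (0.0769 and 0.0526), and both were kept without the doubted arrays (log2 0.84 and 0.72). The other Slc43a2 probe set was dimmer, with a mean of 5.94. It read from 4.93 to 6.01 in NMF, 5.55 to 6.33 in DMN and 5.41 to 6.19 in ANIT, so that these groups overlapped.

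Slc7a7 encodes the light chain y+LAT1, which exports arginine and lysine in exchange for neutral amino acids and is known from macrophages as well as epithelia. It was not called against controls, but NMF lay 2.34-fold below DMN (adjusted p = 0.00493), 1.84-fold below ANIT (adjusted p = 0.0476) and 1.87-fold below Caerulein (adjusted p = 0.046). The NMF arrays read 6.50, 6.31, 6.99, 7.49 and 5.90, and the DMN arrays 8.41, 6.96, 8.57, 7.83 and 7.56. Leaving out any single array kept the DMN call, which a fit to these groups alone ended (0.124). The ANIT call was lost without the doubted arrays (0.0577) and under 5 of the 8 other choices of processing, and 8 single arrays ended it (adjusted p up to 0.189). The Caerulein call was lost under median centring, quantile normalization, in a fit to these groups alone (0.154), with the probe set of largest variance (0.056) and without any of 6 single arrays (up to 0.214). Without the doubted arrays Slc7a7 was also higher in DMN than in controls (log2 0.88, adjusted p = 0.0146). Macrophage markers had medians of summed intensity of 4640 in NMF, 6150 in DMN, 5890 in ANIT, 6830 in Caerulein and 7660 in controls, and their part in the Slc7a7 levels was not tested.

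The comparisons of compounds with each other held few members beyond these. ANIT against DMN called 0 members beside 2.53% of all genes (7 members and 2327 genes at an unadjusted p under 0.05). Without the doubted arrays it called 3, beside 7.85% of all genes: Slc38a3 and Slc6a9 higher in ANIT and Slc6a20a lower. ANIT against NMF called 6 of 53 (11.3%) beside 6.61% of all genes, DMN against NMF 4 (7.55%) beside 4.66%, DMN against DNP 1 (1.89%) beside 6.89% and NMF against Caerulein 6 (11.3%) beside 5.49%. Without the doubted arrays ANIT against NMF lost Slc7a7 and gained Slc7a6os, and DMN against DNP gained Slc7a7, beside 11.1% of all genes. Fits to the groups compared alone called 1 member in ANIT against NMF, 0 in DMN against NMF, 0 in DMN against DNP and 3 in NMF against Caerulein. Over all genes these fits called 821, 186, 266 and 941, beside 940, 662, 980 and 781 in the main fit. Slc38a3 and Slc38a10 complete these calls. Slc38a3 (SNAT3, the sodium-coupled glutamine carrier of hepatocytes) was 1.35-fold higher in ANIT than in NMF (12.48, 12.49, 11.95, 12.63 and 12.52 against 12.18, 12.01, 12.23, 11.73 and 11.75; adjusted p = 0.0369), a call lost in a fit to these groups alone (0.156) and without any of 7 single arrays (up to 0.127), and log2 0.55 (adjusted p = 0.00395) without the doubted arrays. Slc38a10 was 1.35-fold higher in NMF than in Caerulein with no overlap (9.29 to 9.54 against 8.76 to 9.14; adjusted p = 0.0328), and in a fit to these groups alone (0.0698) or without any of 6 single arrays the call was lost (up to 0.112).

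The remaining sodium-coupled carriers of family 38 and the cationic carriers gave no call against controls. Slc38a4 (SNAT4, a hepatocyte carrier of alanine and other short neutral amino acids) varied little, with group means from 12.25 in controls to 12.43 in ANIT and a control SD of 0.19. Slc38a2 (SNAT2, the starvation-induced alanine carrier) varied from 7.93 to 11.22 over the 39 arrays, with a control SD of 0.67, and differed by log2 0.49 in ANIT (adjusted p = 0.428) and 0.42 in DMN (adjusted p = 0.595). Slc7a1 and Slc7a2, the cationic carriers CAT1 and CAT2, had group means from 7.10 to 7.47 and from 6.35 to 7.31. Like Slc6a13, Slc7a2 was lowest on the arrays low in GAPDH 5′ in every group that held one. It read 5.57 on ANIT 5, 4.945 on DMN 3, 5.50 on DNP 1 and 5.35 on NMF 3. The others were 5.34 on Roziglitazone 1, 5.19 on control 4 and 4.96 on control 5. The part of RNA quality in the Slc7a2 levels was not tested. The 3 monoamine carriers of family 6 were not called in any comparison. In all, 39 of the 53 members were called in none of the 11 comparisons, and the members not called against controls lay between log2 -0.72 and 0.49 in ANIT, -0.85 and 1.53 in DMN, and -0.58 and 0.92 in NMF.

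Genes that make, break down or sense amino acids were counted in the same way, beside the 8.19% higher and 8.29% lower of all genes in ANIT, 5.87% and 4.53% in DMN, and 3.85% and 3.63% in NMF. Of 34 measured genes of the ATF4 and amino acid response, none of them a member, 12 were higher and 3 lower in ANIT (8 and 3 without the doubted arrays), 8 and 3 in DMN, and 6 and 3 in NMF. Asns, asparagine synthetase, rose in all 3 (log2 1.53, 1.21 and 2.18), Phgdh, the first enzyme of serine synthesis, rose in ANIT and NMF (1.69 and 1.55), and Atf3 rose in ANIT and DMN (1.86 and 2.12). Of 52 genes of amino acid catabolism and the urea cycle, 26 were lower and 1 higher in ANIT, 18 and 1 in DMN (23 and 1 without the doubted arrays) and 10 and 0 in NMF. Their median log2 fold change was -0.44, -0.40 and -0.21, beside -0.09, -0.06 and -0.05 over all genes. Oat, ornithine aminotransferase, a pericentral enzyme, fell most in each (log2 -2.73, -2.29 and -2.54). Gls2, the liver glutaminase, fell in ANIT and DMN (-1.08 and -1.07), and Otc, the urea cycle enzyme ornithine transcarbamylase, in ANIT and NMF (-1.29 and -1.15).

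Of 32 genes of NRF2 and glutathione supply, 9 were higher and 2 lower in ANIT (8 and 2 without the doubted arrays), 8 and 2 in DMN, and 16 and 2 in NMF. Gclm, the modifier subunit of the enzyme that starts glutathione synthesis, rose by log2 1.69 in NMF, and Gss, glutathione synthetase, by 1.23 in ANIT, while the cystine importer Slc7a11 stayed near background. Of 29 genes that report amino acids to mTORC1, 1 was higher and 2 lower in ANIT, 0 and 2 in DMN and 1 and 0 in NMF, and 2 and 3 in ANIT and 1 and 2 in DMN without the doubted arrays. Among 19 amino acid and peptide carriers of other families, 4 were lower in ANIT, 1 lower in DMN and 1 higher in NMF. Slc16a10 (TAT1, an exporter of aromatic amino acids) fell in ANIT and DMN by log2 -1.22 and -1.15. Of 6 genes of osmotic stress and taurine, 2 were lower in each of the 3, Csad and Cdo1. None of these lists had a gene called in Caerulein, DNP or Roziglitazone.

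**Figure D5:**
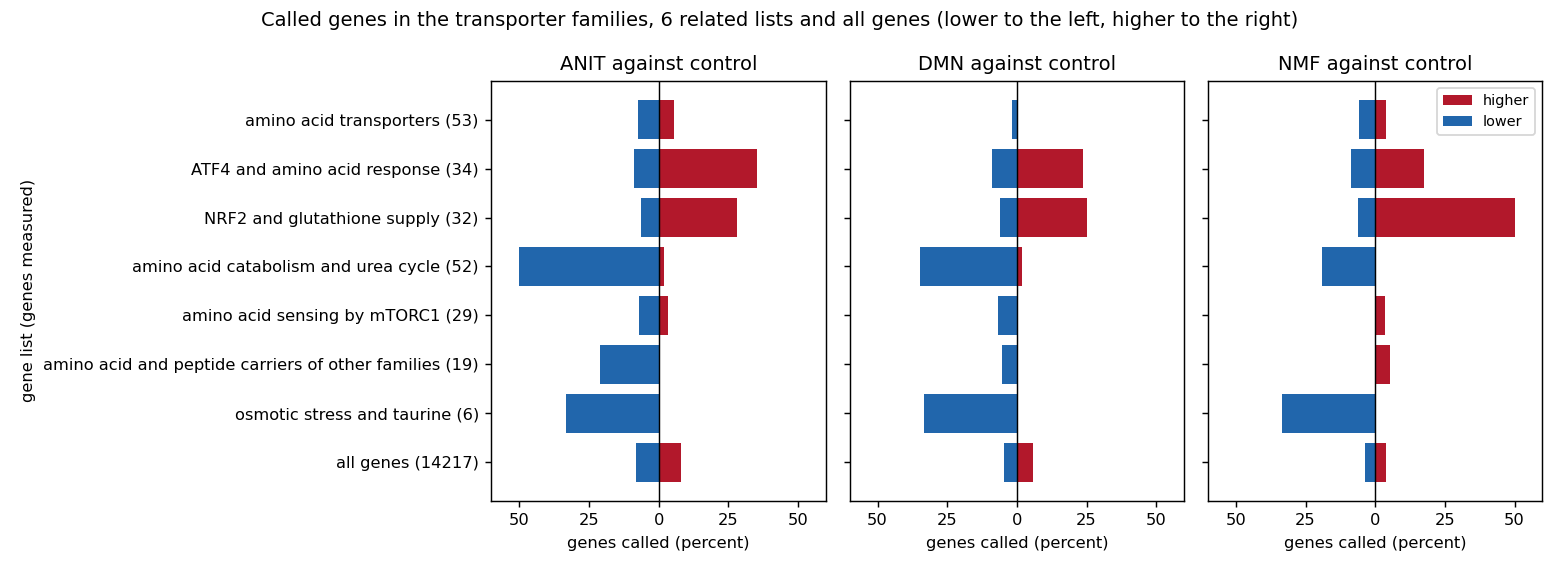
Percent of measured genes called lower (blue, left of 0) or higher (red, right of 0) against controls in the 53 transporter genes, 6 related lists and all genes tested (vertical axis, genes measured in brackets), for ANIT, DMN and NMF. The longest bars are the 26 of 52 lower catabolic genes in ANIT and the 16 of 32 higher NRF2 genes in NMF, while the transporter bars stay short on both sides.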

How the data were processed

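Liver RNA of 39 rats in 7 groups was measured on 1 array each. The authors deposited probe set intensities on a linear scale (5.4 to 23152.1). The submitters' processing notes name RMA and affy without versions. The design had assumed log2 values, so log2 was taken here. Array means ran from 347.8 to 363.4 and array medians from 77.8 to 108.7, so the deposited arrays do not share a common distribution. The number of arrays limits precision. Of 31099 probe sets, 20826 had 1 gene symbol, and the one with the highest mean stood for a gene. One limma 3.58.1 model (R 4.3.3) with a mean per group was fitted to 14217 genes and 39 arrays without filter, and 11 comparisons were adjusted by Benjamini and Hochberg. Fold changes are antilogs of log2 differences. The model was tested on data simulated for ANIT against control over 14217 genes. It called 75 of 100 genes changed by 1 log2 unit, 98 of 100 changed by 2 and 9 of 14017 unchanged. The simulated noise was normal and independent, with each gene's own spread and no outlying or mislabelled arrays. These shares therefore need not hold for the measured arrays.

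Values on single arrays are given for the 12 members at most with the largest called differences against controls and a group mean above the spike-in bound, which were 10, and for those called between compounds. At most 3 called genes a list were named by size; Gclm, Gss, Gls2, Otc and Cdo1 were chosen after their values were seen. Members and lists were chosen with earlier results of these data known. Alternatives covered scaling, array weights, left-out arrays, dim genes, probe sets, smaller fits and a replicate block. Fitting each probe set apart was added after the data were seen. The labels do not say that replicate numbers pair the rats. In 1 of 21 pairs of groups did all same-numbered arrays deviate together (r above 0.1). Of 105 same-numbered pairs of arrays, 58 did. A criterion that asks this of all arrays in a pair of groups cannot exclude an effect shared by replicate number. Calls that the replicate block ended are given with the choices of processing. The labels call the arrays biological replicates.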

Additional observations from a re-analysis of the deposited data

Results flagged for a closer look

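For the 14 members called in any comparison, the highest and lowest array of each group were set against the group's range by Dixon's criterion at the 95% level, which chance meets in about 1 of 20 groups. Of 98 groups of arrays, 7 held such an array. Of these, 3 were ANIT 3, an array whose label is doubted, at 6.65 for Slc7a5, 5.005 for Slc6a20b and 11.95 for Slc38a3, each the lowest of its group. The others were the lowest Roziglitazone array of Slc6a6 (Roziglitazone 5, 8.11), the lowest Caerulein arrays of Slc3a2 (Caerulein 5, 10.43) and Slc7a5 (Caerulein 3, 6.35), and the highest control of Slc6a9 (control 1, 10.95).

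Differences between 2 compounds were tested in the limma fit, and 17 passed at an adjusted p under 0.05. ANIT differed from NMF by log2 0.44 in Slc38a3, 0.71 in Slc43a1, 0.69 in Slc43a2, -1.15 in Slc6a20a, 1.37 in Slc6a6 and 0.88 in Slc7a7. DMN differed from NMF by log2 0.74 in Slc43a2, 1.44 in Slc6a6, -1.01 in Slc6a9 and 1.23 in Slc7a7, and from DNP by -1.36 in Slc1a2. NMF differed from Caerulein by log2 -0.86 in Slc1a2, 0.44 in Slc38a10, -0.95 in Slc43a1, -1.72 in Slc6a6, 0.84 in Slc6a9 and -0.90 in Slc7a7.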

How the results depend on the processing

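Counts of members called in the 11 comparisons were recomputed under 9 other choices of processing and with each array of the groups compared left out in turn. Caerulein, DNP and Roziglitazone stayed at 0 members called under every one. With array weights the counts were 14 for ANIT, 8 for DMN, 6 for ANIT against DMN, 10 for ANIT against NMF, 7 for DMN against NMF and 6 for DMN against DNP. In the same order, array weights called 4839, 3468, 1769, 2934, 1859 and 2622 of all 14217 genes. Without the 3 doubted arrays DMN had 4, ANIT against DMN 3 and DMN against DNP 2. DMN had 2 with quantile normalization, without arrays low in GAPDH 5′ and without the dimmest genes (31 members tested). There 1637 and 1401 of 14217 genes and 1403 of 9952 were called. Fits to the groups compared alone called 1 in ANIT against NMF, 0 in DMN against NMF, 0 in DMN against DNP and 3 in NMF against Caerulein. Over all genes they called 821, 186, 266 and 941. With the probe set of largest variance the counts were 3 for NMF, 3 for ANIT against NMF, 2 for DMN against NMF and 2 for NMF against Caerulein. Counts over all genes there were 856, 784, 597 and 622. With the replicate number as a block (replicate block, with controls 6 to 9 given levels of their own) DMN had 2 and NMF 3, and every other count stayed within 1.5 times the main one; in ANIT it ended the calls of Slc1a4 (adjusted p = 0.135) and Slc7a5 (0.107), in NMF those of Slc1a2 (0.114) and Slc3a2 (0.17), and in NMF against Caerulein that of Slc1a2 (0.0512). Over all genes the replicate block called 1182 in DMN and 926 in NMF. The cause of these changes was not tested.

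With single arrays left out, the counts ran from 4 to 9 in ANIT, 1 to 3 in DMN, 4 to 5 in NMF, 0 to 4 in ANIT against DMN, 1 to 6 in ANIT against NMF, 3 to 5 in DMN against NMF, 1 to 2 in DMN against DNP and 2 to 4 in NMF against Caerulein. Counts moved by over 1.5 times without ANIT 4 in ANIT (4). In DMN they did without DMN 2 (3), DMN 3, DMN 4, control 3 or control 5 (2 each). In ANIT against DMN they did without ANIT 3 (4) or DMN 4 (1), in ANIT against NMF without ANIT 1, ANIT 5 or NMF 2 (2 each) or ANIT 4 or NMF 5 (1 each), and in DMN against DNP without DMN 2 (2). In NMF against Caerulein they did without Caerulein 4 or NMF 1 (2 each) or Caerulein 1, Caerulein 2, NMF 2 or NMF 5 (3 each). The 10 named members kept the direction of every called difference against controls under all these choices. The 1374 values behind this cover all 6 comparisons of each member with controls, most of them not called in the main fit. Only a called difference can lose its call, and 29 values did, while 17 of the others gained one. Calls between compounds are not among these values. The second probe set of Slc1a2, tested apart, had the opposite sign in NMF (0.013, adjusted p = 0.984). Of 720 recomputed counts of the related lists and the cell-type marker lists against controls, 643 stayed within 1.5 times and 77 moved. These counts include Caerulein, DNP and Roziglitazone, where the main fit called no gene at all. Counts there could hardly move, so the share that stayed does not measure how stable the ANIT, DMN and NMF counts are. Signal near background limits 19 members, for which a small difference was not detectable.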
